A study of Mus musculus with 2 samples.

Results

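The genes described here are 10 secreted ligands that act on blood vessels or lymphatics: Vegfa, Vegfb, Vegfc, Pgf, Adm, Angpt1, Angpt2, Angptl2, Angptl4 and Pdgfb. They were chosen by name, and every probe set that the platform annotation gives exactly 1 gene symbol, one of these names, was taken. This found 12 probe sets for 9 of the 10 genes, out of 12393 genes with such a probe set in all. Angptl2 had none under this rule and was not analysed here. The RNA came from uterine stromal cells, the connective tissue cells under the uterine epithelium that decidualize around an implanting embryo, isolated by enzymatic digestion of uterine horns on day 5 of pregnancy, where the day of the vaginal plug was day 1. Cells of 3 animals were pooled for each genotype, and each pool was measured on 1 Affymetrix Mouse Genome 430A 2.0 array.

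One array is labelled Hif1 flox control in its title and Hif2 alpha-intact in its genotype field. The other array is labelled Hif1 cKO and Hif2 alpha-null. A note on breeding speaks of a cross of Hif1 floxed with PRcre mice that ablates Rac1. The labels therefore disagree on the deleted gene, and the arrays are called the flox array and the cKO-labelled array below. Mice of the cKO-labelled group carried floxed alleles and a Cre recombinase driven by the progesterone receptor gene, which is active in stroma and also in other uterine cells. Whether the control mice carried the Cre is not stated in the labels. Epas1, which encodes Hif2 alpha, had a signal of 59.4 on the flox array and 78.1 on the cKO-labelled array. Hif1a had signals of 721 and 1544, and Rac1 had 1038 and 757, each given for the brightest probe set. The other probe sets above the floor had signals of 114 and 297 and of 27.0 and 38.7 for Hif1a. For Rac1 the other such probe set had signals of 664 and 332. Whether these probes lie in a deleted exon was not analysed here, so they do not check the labels.

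New vessels and leaky vessels form in the uterine stroma around an implanting embryo, and stromal cells are known to secrete factors that act on the endothelium. VEGF family ligands bind tyrosine kinase receptors on blood endothelium (Flt1 and Kdr) or lymphatic endothelium (Flt4), and angiopoietins bind the receptor Tek, which stabilises vessels. Adrenomedullin, the peptide made from Adm, dilates vessels through the receptor Calcrl with a RAMP partner, and PDGF-B recruits pericytes through Pdgfrb. Vegfa, Adm and Angptl4 are also textbook targets of hypoxia-inducible factors, which bind a short core of letters in regulatory DNA.

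The stretch of 250 bases before the transcription start is shown for 4 of the 6 ligands with an entry, because the title and genotype labels name hypoxia-inducible factors. The sequences are from RefSeq (build GRCm38.p6), on the strand of the gene, 5′ to 3′. Capitals mark the core letters of the hypoxia response element, searched as ACGTG and as GCGTG on both strands, so that the reverse strand reads CACGT or CACGC. No 2 of the matches printed here overlap. The stretches lie at chr7:110627407-110627656 on the plus strand for Adm, and on the minus strand at chr17:46032378-46032627 for Vegfa, chr19:6987652-6987901 for Vegfb and chr12:85177314-85177563 for Pgf.
Adm: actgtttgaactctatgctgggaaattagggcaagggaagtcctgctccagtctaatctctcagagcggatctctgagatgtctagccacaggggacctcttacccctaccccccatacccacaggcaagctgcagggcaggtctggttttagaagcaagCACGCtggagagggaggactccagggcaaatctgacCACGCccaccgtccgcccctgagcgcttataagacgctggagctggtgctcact
Vegfa: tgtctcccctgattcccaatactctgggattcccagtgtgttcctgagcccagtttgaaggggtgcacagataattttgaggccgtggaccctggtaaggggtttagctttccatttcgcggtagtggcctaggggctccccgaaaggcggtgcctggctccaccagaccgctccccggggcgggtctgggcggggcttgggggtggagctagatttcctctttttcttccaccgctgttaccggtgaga
Vegfb: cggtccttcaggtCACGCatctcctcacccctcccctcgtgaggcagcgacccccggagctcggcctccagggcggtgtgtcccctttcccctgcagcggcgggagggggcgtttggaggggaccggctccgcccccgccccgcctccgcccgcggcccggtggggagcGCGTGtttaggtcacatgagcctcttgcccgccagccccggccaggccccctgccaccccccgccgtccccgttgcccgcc
Pgf: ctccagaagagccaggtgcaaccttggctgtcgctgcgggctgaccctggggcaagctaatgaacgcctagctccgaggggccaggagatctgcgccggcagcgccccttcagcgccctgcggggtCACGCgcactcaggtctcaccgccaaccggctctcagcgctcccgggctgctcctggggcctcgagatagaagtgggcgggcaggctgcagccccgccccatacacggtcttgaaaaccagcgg
Adm had the letters CACGC at 90 and 54 bases before its start. Vegfb had GCGTG at 81 bases and CACGC at 237 bases, Pgf had CACGC at 124 bases, and the Vegfa stretch had no match. Vegfa and Pgf each have a further start in the table, and the Pgf stretch shown lies inside the annotated span of its gene. The further Vegfa stretch, also inside its gene, held 1 match to ACGTG and 1 to GCGTG. The further Pgf stretch and those of Vegfc and Angptl2, which are not shown, had no match. The table held 8 stretches for 6 of the 10 genes, and 4 of the 8 had a match to either motif. Among all 32851 stretches of this length in the table, 16.6% held ACGTG, 28.2% held GCGTG and 38.6% held either. A match describes the letters and no match says only that they are not in this stretch. Angpt1, Angpt2, Angptl4 and Pdgfb have no entry in that table.

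The deposited values are MAS5 signals, linear intensities with 1 value for each probe set. A signal at or under 19.7, the 40th percentile of both arrays pooled, was set to that floor, since it can be noise. The log2 ratio is cKO-labelled minus flox, so a negative value is lower on the cKO-labelled array. Each genotype has 1 array, so replicates, tests and p-values are lacking and each value describes these 2 arrays. How far 2 probe sets of 1 gene disagreed was the only error at hand, with an SD of 0.64 for 1 log2 ratio and 0.91 for the difference between 2 of them (2660 genes). It leaves out the spread between animals, pools and arrays. Signals of different probe sets are on different scales. Ranking them by brightness, reading them against the floor or the trend and summing them over lists is therefore only rough.

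Of the 9 ligands with a probe set, 8 were above the floor on at least 1 array and could be compared. Adm and Pdgfb were lower by 2-fold or more on the cKO-labelled array, where 13.0% of all 8593 genes compared were, and none of the 8 was higher by 2-fold or more, where 6.21% of all genes were. With 8 genes, 2 of them lower is a count close to that background and nothing is read from it for the group. By any amount, 5 ligands were lower, where 55.3% of all genes were, and 3 were higher, where 44.7% were, taking the brightest probe set of each. One of the 3 is Vegfa, whose other probe set had the opposite sign. Quantile normalization, median centring and removal of the trend of ratio on signal left these directions at the brightest probe sets as they were. The median log2 ratio of the 8 was -0.49, where the median of all genes compared was -0.10. Median centring of the arrays moved the ligand median to -0.27 and that of all genes to 0.16.

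**Figure D1:**
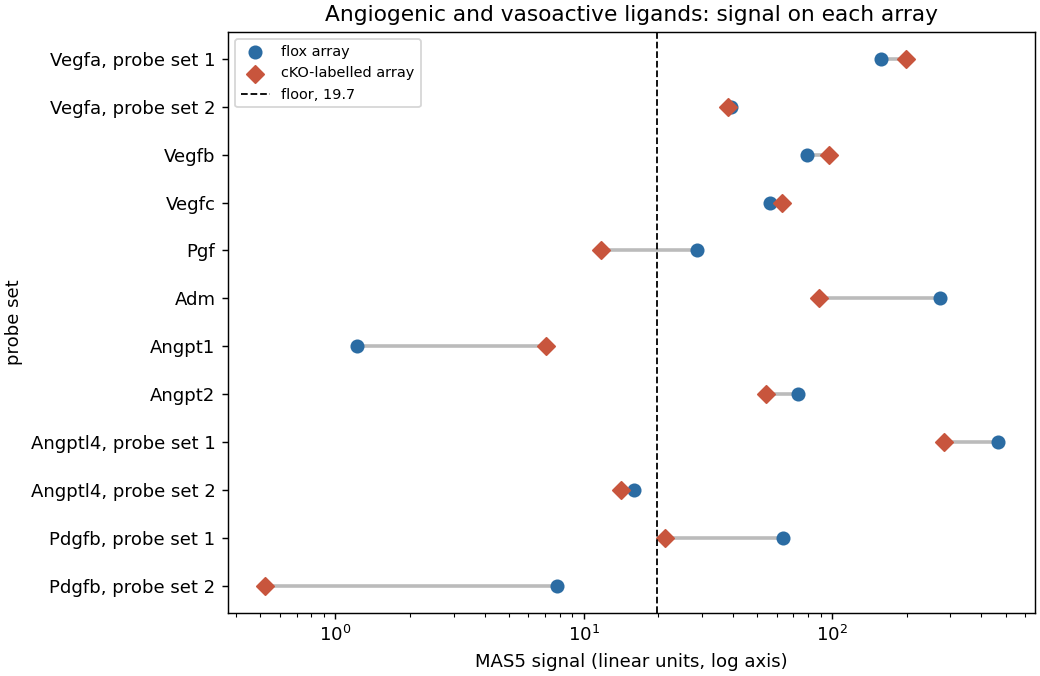
MAS5 signal of the 12 probe sets of 9 ligand genes on the flox array (circles) and the cKO-labelled array (diamonds), on a log axis, with the floor of 19.7 as a dashed line. Adm and the brighter Pdgfb probe set are far apart between the arrays, the probe sets of Vegfa, Vegfb and Vegfc lie close together, and 3 probe sets lie left of the floor on both arrays.

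The VEGF ligands that were above the floor on both arrays differed little between them. Vegfa, the main growth factor of blood endothelium, had a signal of 157 on the flox array and 198 on the cKO-labelled array, a log2 ratio of 0.34. Its other probe set had signals of 39.1 and 38.0, giving a log2 ratio of -0.04. The 2 Vegfa probe sets thus had opposite signs and lay closer together than the 0.91 between probe sets in general, and no direction is given for this gene. Vegfb, a ligand of Flt1, had signals of 79.0 and 97.0, giving a log2 ratio of 0.30. Vegfc, the main ligand of the lymphatic receptor Flt4, had signals of 56.5 and 62.7, giving a log2 ratio of 0.15. All 3 ratios were above 0 and smaller than the SD of 0.64, and 28.7% to 37.3% of all genes compared had ratios as high or higher.

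Pgf, placental growth factor, also binds Flt1 and was the VEGF family member with the lowest ratio. It had a signal of 28.6 on the flox array, close to the floor, and 11.7 on the cKO-labelled array, which is under it. The difference is therefore a bound, at least 1.45-fold lower. How large it looks depends on the floor, since the log2 ratio was -1.29 with the floor at the 25th percentile (a signal of 6.81) and -1.02 with no floor and a pseudocount of 4.70. Pgf has 1 probe set, so the value rests on that one.

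Adm, the gene of the vasodilator adrenomedullin, had the lowest ratio of the ligands. Its single probe set had a signal of 272 on the flox array and 88.5 on the cKO-labelled array, a log2 ratio of -1.62, or 3.07-fold lower. Both signals lay well above the floor. Among all genes compared, 3.56% had a ratio as low or lower. The ratio of Adm ranged from -1.62 to -1.34 over the 9 settings tried and was past 2-fold in each of them. Some of these, such as other floors, could not move it, since Adm has 1 probe set above every floor tried.

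Pdgfb, the chain of PDGF-B that attracts pericytes to endothelium, was lower by a similar ratio and at lower signal. Its brighter probe set had signals of 63.8 and 21.2, giving a log2 ratio of -1.59, or 3.01-fold lower, and 3.84% of all genes had a ratio as low or lower. The signal on the cKO-labelled array is just above the floor of 19.7. The other Pdgfb probe set had signals of 7.80 and 0.520, both under the floor, and gives no fold. The ratio ranged from -1.59 to -1.31 over the 8 settings in which it could be compared. With the floor raised to the 60th percentile, a signal of 66.3, both Pdgfb signals lay under it.

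The angiopoietins gave 1 gene to compare. Angpt2, which loosens vessels by competing at Tek, had a signal of 73.3 on the flox array and 54.1 on the cKO-labelled array, a log2 ratio of -0.44. This ratio came to -0.12 after removal of the trend with signal, which stood at -0.32 at the signal of Angpt2. Angpt1, the activating ligand of Tek, had signals of 1.22 and 7.04, under the floor on both arrays, so no fold is given. A probe set at the floor does not show that the gene is silent.

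Angptl4, a secreted inhibitor of lipoprotein lipase that also acts on vessels, had the third lowest ratio at the floor of 19.7, where Pgf is a bound, and stood above Pgf with the lower floor or the pseudocount. Its signals were 466 on the flox array and 282 on the cKO-labelled array, a log2 ratio of -0.72, or 1.65-fold lower. This probe set has the suffix _s_at, which marks probes that can match several transcripts. The other Angptl4 probe set had signals of 16.0 and 14.1, under the floor on both arrays. At a size rule of 1.5-fold, Angptl4 joined Adm and Pdgfb, giving 3 of 8 ligands lower, where 26.4% of all genes were. At 3-fold, Adm and Pdgfb still passed as deposited, narrowly at 3.07-fold and 3.01-fold, where 3.84% of all genes did. Neither would pass 3-fold after quantile normalization, median centring or trend removal. There Adm had log2 ratios of -1.46, -1.34 and -1.50, and Pdgfb had -1.35, -1.31 and -1.34. No ligand was higher at either rule, where 18.5% of all genes were at 1.5-fold and 1.23% at 3-fold.

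**Figure D2:**
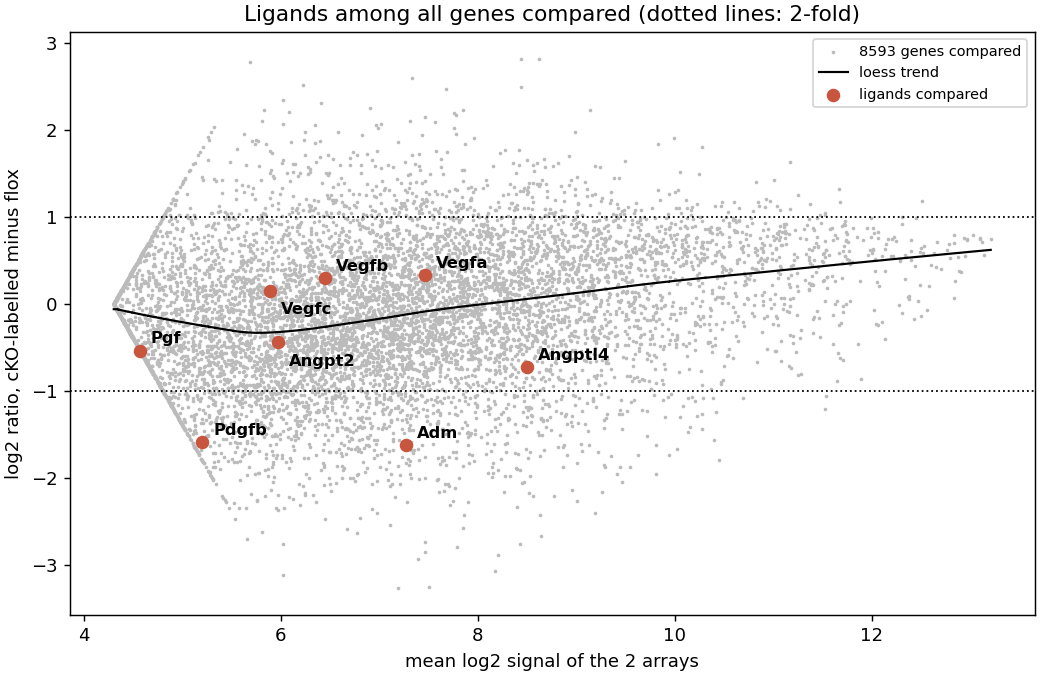
Log2 ratio (cKO-labelled minus flox) against the mean log2 signal of both arrays for 8593 genes (grey) and the 8 ligands compared (red), with the loess trend as a line and 2-fold as dotted lines; genes at the floor on 1 array form the slanted edges at the left. Adm and Pdgfb lie below the lower dotted line, while Vegfa, Vegfb and Vegfc lie above the trend.

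Genes of high signal had higher ratios across the arrays, so each ligand was also read against that trend. The trend was -0.12 at the signal of Adm, -0.25 at that of Pdgfb and 0.06 at that of Angptl4. With the trend removed, Adm stood at -1.50, Pdgfb at -1.34 and Angptl4 at -0.78. Pgf stood at -0.42, which is a bound because its signal on the cKO-labelled array was under the floor. Vegfa stood at 0.42, Vegfc at 0.48 and Vegfb at 0.56. The VEGF ligands other than Pgf thus lay above genes of their signal by less than the SD of 0.64, and Adm and Pdgfb lay below by more. That SD is the spread of probe sets on the same 2 arrays, so it does not test a difference between genotypes.

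**Figure D3:**
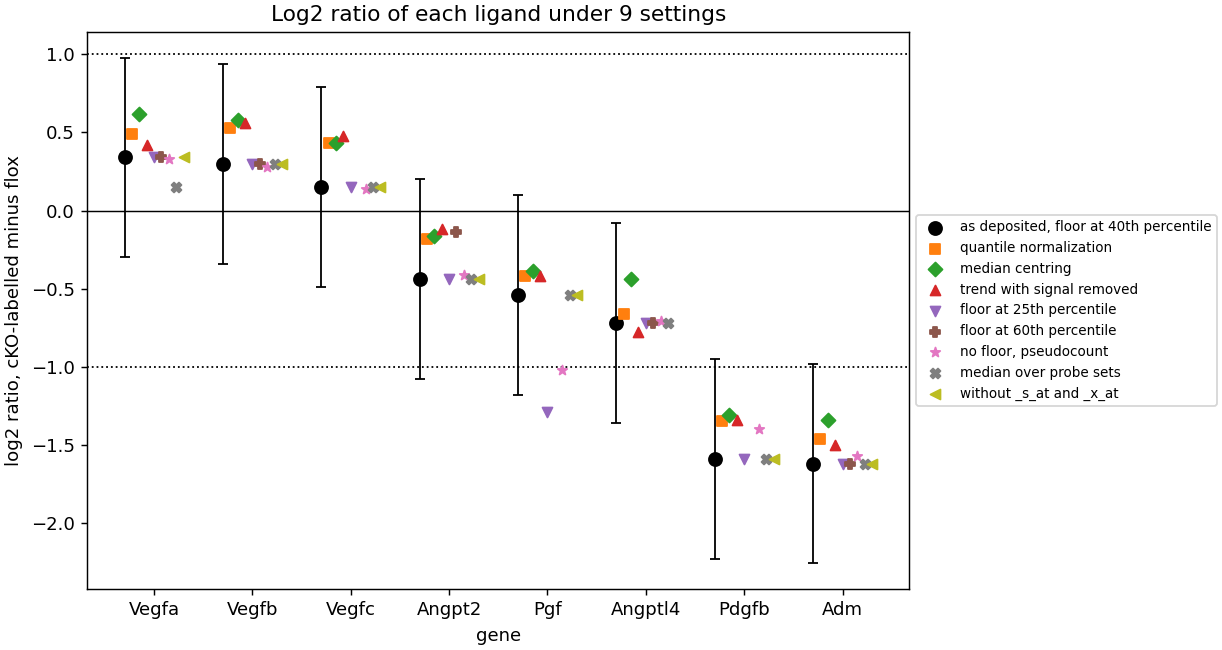
Log2 ratio (cKO-labelled minus flox) of the 8 ligands under the 9 settings named in the legend; the bar on the black point is the SD of 0.64 between probe sets of a gene, and dotted lines mark 2-fold. No point of a ligand crosses 0, Pgf passes the lower 2-fold line under 2 settings, and Adm and Pdgfb lie below that line wherever they could be compared.

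The arrays also differed in signal from the 5′ ends of transcripts. The b-actin signal ratio of 3′ to 5′ probe sets was 2.27 on the flox array and 16.0 on the cKO-labelled array, and for Gapdh it was 1.49 and 7.25. The positions of the ligand probes within their transcripts were not analysed here. The part of RNA integrity in the ratios of Adm, Pdgfb and all other genes given here was not tested. Array and genotype cannot be told apart in this design.

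The receptors and co-receptors of these ligands went in both directions. Of 19 on the list, 18 were compared, 2 were lower by 2-fold or more and 1 higher by 2-fold or more, with a median log2 ratio of -0.10 that turned to 0.18 after median centring. Among all genes 13.0% were lower and 6.21% higher by that much, so these counts are near the background and nothing is read from them. Itgb3 was at the floor on both arrays. The 3 genes past 2-fold were Ramp1, Ramp2 and Calcrl, described with the other genes of adrenomedullin.

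Calcrl, the receptor that adrenomedullin shares with CGRP, had a signal of 167 on the flox array and 422 on the cKO-labelled array, a log2 ratio of 1.34. Its other probe set was under the floor on both, with signals of 5.55 and 8.14. Ramp2, the partner that turns Calcrl into an adrenomedullin receptor, had signals of 711 and 260, giving a log2 ratio of -1.45. Ramp1, the partner that makes it a CGRP receptor, had signals of 1075 and 329, giving a log2 ratio of -1.71. Ramp3, the alternative partner for adrenomedullin, had signals of 44.8 and 36.7, and its log2 ratio of -0.29 came to 0.01 after quantile normalization. Pam, the enzyme that completes adrenomedullin by amidation, had signals of 123 and 70.4, giving a log2 ratio of -0.80. Ackr3, an atypical receptor that also takes up adrenomedullin, had signals of 778 and 1226, giving a log2 ratio of 0.66. The ligand and 2 RAMP partners were thus past 2-fold lower, where 13.0% of all genes were. The shared receptor was past 2-fold higher, where 6.21% were. These directions were the same under quantile normalization, median centring and trend removal. Ramp3, Pam and Ackr3 did not reach 2-fold. With so few genes, nothing is read from this for adrenomedullin signalling.

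The VEGF receptors had smaller ratios. Kdr, the main signalling receptor for Vegfa, had signals of 252 on the flox array and 200 on the cKO-labelled array, a log2 ratio of -0.33. Flt1, which binds Vegfa, Vegfb and Pgf, had a log2 ratio of 0.07 where it was brightest, with signals of 102 and 108. The other Flt1 probe sets gave 0.80 and a bound of -0.43 or lower, so its direction was not settled. Flt4 had signals of 113 and 110, giving a log2 ratio of -0.03. The co-receptor Nrp1 was higher at each of its 3 probe sets as deposited, with log2 ratios of 0.40, 0.64 and 0.21, and Nrp2 had 0.48. None of these VEGF receptors and co-receptors reached 2-fold.

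Receptors of the angiopoietins and of PDGF-B were close to even or not settled. Tek had signals of 238 on the flox array and 212 on the cKO-labelled array, and its log2 ratio of -0.16 turned to 0.12 after median centring. Tie1, the orphan partner of Tek, had signals of 35.1 and 17.5, at least 1.78-fold lower. Ptprb, a phosphatase that restrains Tek, had signals of 300 and 296. Pdgfrb, the receptor of PDGF-B, had signals of 1615 and 2223 at its brighter probe set, a log2 ratio of 0.46, and signals of 184 and 43.3 at the other, a log2 ratio of -2.09. Pdgfra, with signals of 2215 and 2212 at its brighter probe set, was at -1.70 on the log2 ratio scale at the other. The direction of Pdgfrb therefore depends on the probe set, and Pdgfra was even at one probe set and lower at the other.

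Other ligands of the same families were compared from a list of 20, of which 17 had a probe set and 9 were above the floor on at least 1 array. Of these 9, 1 was higher by 2-fold or more, where 6.21% of all genes were. None was lower by 2-fold or more, where 13.0% were. With so few genes nothing is read from these counts, and the median log2 ratio was 0.07. Pdgfa, which signals through Pdgfra, had signals of 108 and 247 at its brighter probe set, a log2 ratio of 1.19, and -0.25 at the other. Vegfd, like Vegfc a ligand of Flt4, had log2 ratios of 0.43, 0.62 and -0.04 at its 3 probe sets. Pdgfc had signals of 1124 and 1665, giving a log2 ratio of 0.57, and -0.02 at its other probe set. The vasoconstrictor Edn1 had signals of 93.5 and 75.8, giving a log2 ratio of -0.30 that came to -0.02 after median centring. Among the PDGF chains compared at their brightest probe sets, Pdgfb had the lowest ratio.

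Genes of maturation, binding and inhibition were compared for 13 of 18 on the list, with a median log2 ratio of -0.02. By 2-fold or more, 2 were lower, where 13.0% of all genes were, and 1 was higher, where 6.21% were. These counts are near the background and nothing is read from them. Thbs1, an inhibitor of angiogenesis, was lower at both of its probe sets, with signals of 430 and 194 (log2 ratio -1.15) and of 300 and 155 (-0.95). Thbs2, its relative, had log2 ratios of -0.71 and -0.54. Pcsk5, a protease that can process VEGF-C, had signals of 591 and 276, giving a log2 ratio of -1.10, with -0.09 at its next probe set, whereas Furin, which does so too, had 0.40. Sema3a, which competes with Vegfa at Nrp1, had signals of 19.9 and 61.2, giving a log2 ratio of 1.62 that starts from a signal at the edge of the floor. The other 2 Sema3a probe sets were under the floor on both arrays.

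**Figure D4:**
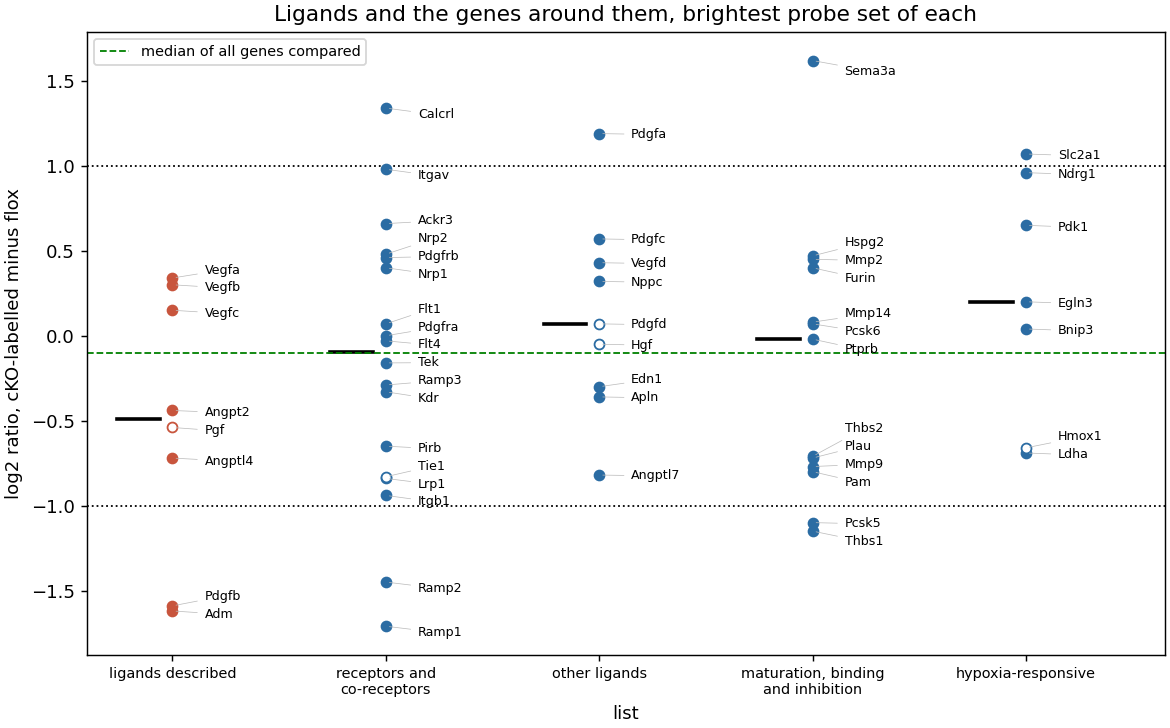
Log2 ratio (cKO-labelled minus flox) at the brightest probe set of each gene compared, for the ligands (red) and 4 lists of genes around them (blue); black bars are list medians, open circles are bounds with 1 array at the floor, and dotted lines mark 2-fold. Adm, Pdgfb, Ramp1 and Ramp2 lie in the lowest part and Calcrl, Pdgfa and Sema3a in the highest.

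Hypoxia-responsive genes of other families went in both directions, with 2 lower and 5 higher by any amount, where 55.3% and 44.7% of all genes were. Of 10 on the list, 7 were compared, with a median log2 ratio of 0.20. By 2-fold or more, none was lower, where 13.0% of all genes were, and 1 was higher, where 6.21% were. Nothing is read from counts this small. Slc2a1, the glucose transporter GLUT1, had log2 ratios of 1.07, 0.76 and -0.69 at its 3 probe sets. Pdk1, a kinase that holds back pyruvate oxidation, had 0.65 and 0.38, and Ldha, lactate dehydrogenase A, had signals of 1208 and 748, giving a log2 ratio of -0.69. Egln3, an oxygen-sensing hydroxylase, had 0.20 and Bnip3 had 0.04. Ndrg1 ranged from -2.05 to 0.96 over its 5 probe sets. Of the ligands known as hypoxia-responsive, Adm stood at -1.62 and Angptl4 at -0.72, while Vegfa, with 0.34 and -0.04, has no settled direction.

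Markers of uterine stroma were present on both arrays. All 12 on the list were above the floor on at least 1 array, with a median log2 ratio of 0.03 that turned to -0.08 after quantile normalization and -0.11 after trend removal. The summed signal was 26316 on the flox array and 35611 on the cKO-labelled array, led by the bright matrix and filament genes Col3a1 (log2 ratio 0.56), Vim (0.66), Dcn (0.65) and Col1a1 (0.59). Other probe sets gave -0.58 for Vim and -1.26 for Col1a1, and Col3a1 turned to -0.16 after quantile normalization and -0.05 after trend removal. Hoxa11 was the 1 marker past 2-fold, lower with signals of 389 and 108, where 13.0% of all genes were lower by that much. The other regulators Hoxa10 (-0.55), Pgr (-0.83) and Nr2f2 (-0.54) were below 0 at their brightest probe sets. The other 2 probe sets of Nr2f2 gave 0.81 and 0.70. Esr1 and Hand2 lay near the floor on both arrays, the former with signals of 18.4 and 19.8 and the latter with 21.2 and 22.1.

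Other cell types that make or answer these ligands also left markers in the RNA. Several of these markers were lower on the cKO-labelled array and others were higher. Of 13 endothelial markers, 12 were compared, and 6 were lower by 2-fold or more, where 13.0% of all genes were. None was higher by 2-fold or more, where 6.21% were. The list had a median log2 ratio of -1.03 and a summed signal of 4734 on the flox array and 3456 on the cKO-labelled array. Kdr, Tek, Tie1 and Ramp2 stand in this list and in that of the receptors. Erg was at the floor on both arrays, and the defining markers Cdh5 (signals of 654 and 302) and Pecam1 (139 and 27.5) were not. By any amount, 10 of the 12 were lower, where 55.3% of all genes were. The 2 higher were Plvap (564 and 702, log2 ratio 0.32) and Sox17 (571 and 1120, 0.97), whose other probe set gave -1.40. Endothelium is known to express Pdgfb and Angpt2, and their ratios of -1.59 and -0.44 stand beside this list. The part of endothelial RNA in the ratios of Pdgfb, Angpt2 and Adm was not tested. In pooled bulk RNA, fewer cells of a type and less RNA per cell cannot be told apart. The part of RNA integrity in these marker ratios was not tested either.

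Sums over a list add probe sets of different scales and are led by its brightest genes, so medians are given beside them. For each count below, the shares of all genes compared were 13.0% lower and 6.21% higher by 2-fold or more. The lists are short, and nothing is read from a count near those shares. Of 10 markers of smooth muscle and pericytes, the cells that PDGF-B recruits, 4 were lower by 2-fold or more and none higher by that much, with a median of -0.90 and a summed signal of 11691 on the flox array and 11808 on the cKO-labelled array. Myl9 (signals of 1200 and 327) was the lowest of them and the pericyte marker Rgs5 (2123 and 3157 at its brightest probe set) was among the highest. The other Rgs5 probe sets gave log2 ratios of 0.62, -0.42 and -0.76, so its direction is not settled. Of 6 NK cell markers, 3 were lower by 2-fold or more and 1 higher by 2-fold or more, with a median of -0.77 and a summed signal of 832 and 661. Of 7 myeloid markers, 4 were lower by 2-fold or more and 1 higher by 2-fold or more, with a median of -1.23, below that of the endothelial list, and a summed signal of 3076 and 2421, and none was at the floor on both arrays. Of 8 epithelial markers, 7 were compared, 2 were lower by 2-fold or more and none higher by 2-fold or more, with a median of 0.32 and a summed signal of 2179 and 1784. Platelets, a store of PDGF, had 2 of 4 markers above the floor, Pf4 with signals of 217 and 262 and Itga2b with 43.8 and 13.1, and Gp9 and Ppbp were at the floor on both arrays. The part of these cell types in the ligand ratios was not tested.

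**Figure D5:**
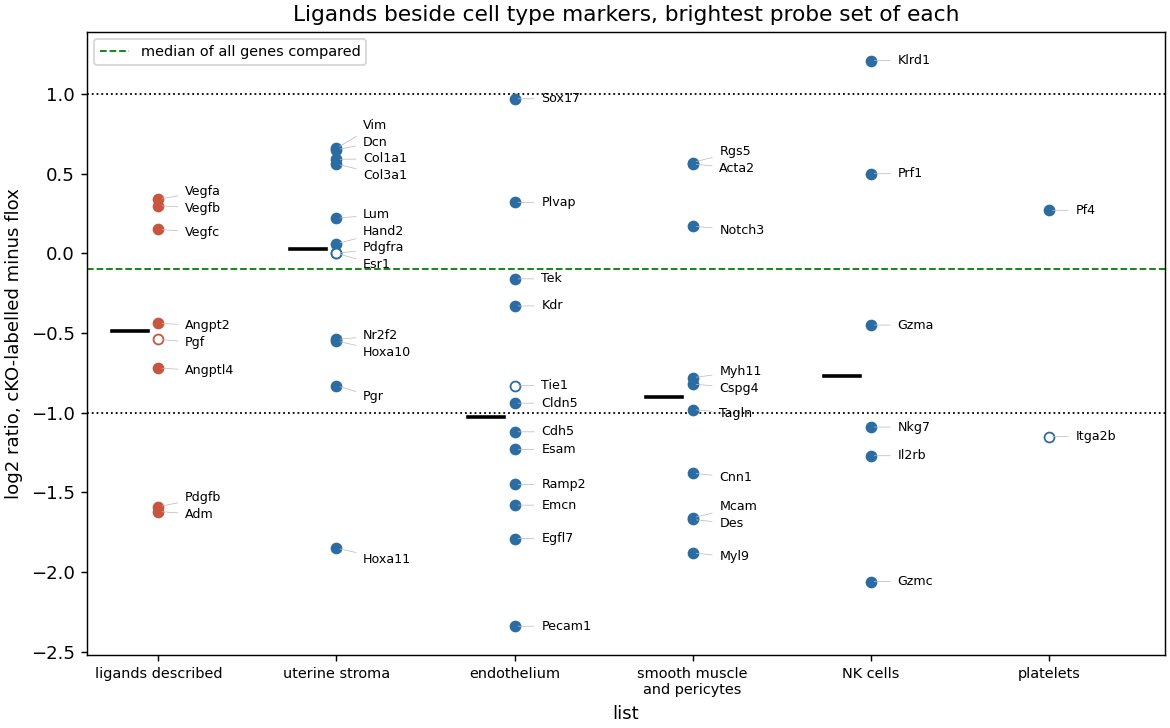
Log2 ratio (cKO-labelled minus flox) at the brightest probe set of each gene compared, for the ligands (red) and markers of 5 cell types (blue); black bars are medians of lists with at least 3 genes, open circles are bounds, and dotted lines mark 2-fold. The endothelial median of -1.03, the smooth muscle and pericyte median of -0.90 and the NK cell median of -0.77 lie below the stromal median of 0.03. The myeloid list, with a median of -1.23, and the epithelial list, with 0.32, are not drawn.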

How the data were processed

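The values deposited are linear intensities made by the authors with MAS5 in Affymetrix Expression Console version 1, per the submitters' processing notes, from RNA labelled with a 3' Express kit, per the labels' protocols. Their scaling was kept: the mean after trimming 2% from either end was 150.1 on both arrays, and the medians were 41.8 (flox) and 34.4 (cKO-labelled). Groups were taken from the titles.

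Leaving out control probe sets, 22626 remain, of which 20380 have 1 symbol in the platform annotation, 691 have several and 1555 have none here. Symbols of 20351 were updated by Entrez identifier in a RefSeq table (GRCm38.p6). Signals were floored (19.7) and put on a log2 scale, and a gene took its probe set of highest mean. The 3800 genes at the floor on both arrays were left out, which left 8593. All ligands are named with the values of every probe set. Genes around them came from 4 lists and 7 marker lists, of which only some are named, and none was picked by likeness of pattern. The members and lists were chosen with earlier results of these data known. There was no test, and the number of arrays limits the precision. The size rule of 2-fold was tried on simulated arrays with larger changes, in bright genes only and with little noise. That simulation cannot check calls near 2-fold or near the floor. Alternatives were quantile normalization, median centring, removal of a loess trend (span 0.4, statsmodels 0.14.6), floors at the 25th and 60th percentiles, a pseudocount, a median over probe sets, leaving out _s_at and _x_at probe sets, and size rules of 1.5-fold and 3-fold.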

Additional observations from a re-analysis of the deposited data

How the results depend on the processing

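Adm was lower by 2-fold or more under each of 9 settings, and Pdgfb under each of the 8 in which it could be compared. The 25th and 60th percentile floors, the probe set median and the suffix filter left Adm at -1.62, since they could not move it. Pdgfb likewise stayed at -1.59 under the 25th percentile floor, the probe set median and the suffix filter. Those settings are therefore no check of either ratio. The count of 2 ligands lower by 2-fold or more fell to 1, Adm, under a 60th percentile floor, where 5 ligands were compared and Pdgfb was under the floor on both arrays. It came to 3 under a 25th percentile floor and with no floor and a pseudocount, since Pgf then had ratios of -1.29 and -1.02. Of all genes compared, 9.28% were lower by 2-fold or more with the 60th percentile floor. That share was 13.1% with the 25th percentile floor and 9.80% with the pseudocount. With 5 to 9 ligands compared, nothing is read from these counts. No ligand was higher by 2-fold or more under any setting, counting those at 1.5-fold and 3-fold. Of all genes, 4.24% (probe set median) to 13.4% (median centring) were higher by 2-fold or more, depending on the setting. At 1.5-fold 18.5% were, and at 3-fold 1.23% were. With so few ligands, their absence from these shares is not read as a result. Angpt1 could be compared only under the 2 settings with a low floor or none, with ratios of 0.05 and 0.99 from signals under 19.7. No ligand changed sign at gene level, although the 2 Vegfa probe sets differ in sign. Each array was left with no other of its group, so no replicate could be left out. No paired analysis was possible because each group has 1 array. Low signal limits Pgf, Pdgfb, Angpt1 and the second probe set of Angptl4.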
